A study of Mus musculus with 18 samples.

Results

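The genes described here are 53 that copy DNA or carry cells through mitosis, 32 with a role in DNA replication and 21 with a role in mitosis. They were taken by symbol from a set list, and the rule uses no measured value. The list itself was chosen with earlier results of these data known. All 53 were found among the 23038 genes that the deposited tables share. Of these, 46 reached a mean of at least 10 RPKM (reads per kilobase of gene, scaled to the depth of the library) over the 6 deposited columns, as 6295 of all genes did. These 46 are called measured members. The remaining 7, Pola1, Pole, Mki67, Bub1, Kif23, Cenpe and Cenpf, are described by their levels alone.

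The study asked which messages of mouse haematopoietic stem cells (HSCs), the bone marrow cells that renew all blood lineages, carry N6-methyladenosine (m6A) placed by the methyltransferase Mettl3. It holds 18 libraries in 6 groups of 3: input RNA, RNA left unbound by an antibody against m6A, and RNA eluted from it (m6A-tagged), each from wild-type and from Mettl3-deficient cells. Adult C57BL/6 bone marrow was sorted for Lin- Sca1+ cKit+ CD150+ CD48- cells, and polyadenylated RNA of 3000 cells was incubated with 1.25 µg of antibody, amplified by Smart-seq2 and read as paired 150-base reads. No fragmentation of the RNA is described, so a value belongs to a whole gene and gives no position of a methylated base. The Mettl3-deficient mice carried Mx1-cre and floxed Mettl3, and mice of either genotype received 10 µg of pIpC on alternate days for 5 doses and were killed 10 days after the last. Mx1-cre is switched on by interferon, which pIpC induces, and acts in many cell types besides HSCs. The labels do not say whether the wild-type mice carried Mx1-cre.

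Replication starts when Cdc6 and Cdt1 load the ring of Mcm proteins onto origins and Cdc45 and the GINS complex turn that ring into a moving helicase. Replication factor C then loads the sliding clamp Pcna, polymerases copy the strands, and Fen1 and Lig1 finish the lagging strand. In mitosis Cdk1 with its cyclins drives entry, Aurora and Polo-like kinases build the spindle, and Cdc20 with the anaphase-promoting complex (APC/C) triggers chromosome separation. E2F proteins are known to drive the replication genes early in the cycle, and MuvB complexes the mitotic genes later, through elements near the start site. DREAM, a complex that also holds MuvB, is instead a repressor of cell cycle genes. Adult HSCs are known to divide rarely, so their content of these messages is a usual measure of cycling.

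Promoter letters set the replication genes apart from the mitosis genes. RefSeq windows of 300 bases (250 before and 50 after the start, GRCm38.p6) were matched by gene ID for 45 members, and 8 had no window. The windows were searched on both strands for E2F letters (TTCCCGC or TTGGCGC), for the cell cycle genes homology region, CHR (TTTGAA or TTCGAA), and for CCAAT, the letters bound by NF-Y. TTCGAA reads the same on both strands, and CCAAT on the other strand (ATTGG) can share bases with TTGGCGC. The 5 sequences show each arrangement: E2F letters in replication genes, CHR letters in mitosis genes, and Cdk1 with both. Each is the 200 bases before the start, printed along the gene's strand, with E2F and CHR letters in capitals.
Mcm6: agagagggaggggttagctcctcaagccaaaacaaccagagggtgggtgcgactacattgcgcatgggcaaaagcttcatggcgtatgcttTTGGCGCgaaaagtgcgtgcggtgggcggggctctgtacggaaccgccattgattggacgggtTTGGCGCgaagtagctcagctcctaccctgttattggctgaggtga
Rrm1: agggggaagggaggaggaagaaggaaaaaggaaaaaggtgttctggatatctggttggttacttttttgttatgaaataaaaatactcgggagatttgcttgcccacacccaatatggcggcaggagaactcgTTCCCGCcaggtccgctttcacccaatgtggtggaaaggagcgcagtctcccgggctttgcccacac
Cdk1: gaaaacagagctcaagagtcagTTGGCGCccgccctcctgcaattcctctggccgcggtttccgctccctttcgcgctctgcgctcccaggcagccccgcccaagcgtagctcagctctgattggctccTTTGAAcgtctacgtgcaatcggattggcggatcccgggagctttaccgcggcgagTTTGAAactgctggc
Cdc20: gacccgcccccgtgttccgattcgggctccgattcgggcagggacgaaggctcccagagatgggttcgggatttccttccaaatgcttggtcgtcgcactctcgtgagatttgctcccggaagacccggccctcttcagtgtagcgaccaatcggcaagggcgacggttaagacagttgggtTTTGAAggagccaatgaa
Kif11: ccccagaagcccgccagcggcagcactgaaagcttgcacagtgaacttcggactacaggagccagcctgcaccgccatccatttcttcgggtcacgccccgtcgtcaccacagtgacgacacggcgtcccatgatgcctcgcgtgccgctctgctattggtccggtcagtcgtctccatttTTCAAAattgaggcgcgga

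The Mcm6 window lies at chr1:128359706-128359905 on the minus strand, and its TTGGCGC copies begin 109 and 46 bases before the start. The Rrm1 window lies at chr7:102441495-102441694 on the plus strand, with TTCCCGC 67 bases before the start. The Cdk1 window lies at chr10:69352913-69353112 on the minus strand, with TTGGCGC 178 bases and TTTGAA 71 and 15 bases before the start. In Cdc20 (chr4:118437344-118437543, minus strand) TTTGAA begins 18 bases before the start. In Kif11 (chr19:37376182-37376381, plus strand) the letters lie on the other strand and read TTCAAA, 19 bases before the start. CHR letters thus began within 19 bases of the start in all 3 printed mitosis genes.

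E2F letters were held by 16 of 27 replication windows (59.3%) and 3 of 18 mitosis windows (16.7%), beside 14.7% of 5100 windows of measured genes and 7.79% of all 27025. CHR letters had the opposite distribution, with 5 of 27 replication windows (18.5%) and 13 of 18 mitosis windows (72.2%), beside 16.5% of measured and 21.7% of all genes. CCAAT was held by 15 of 27 replication and 15 of 18 mitosis windows (55.6% and 83.3%), beside 43.1% of measured and 41.1% of all genes. A match is a run of letters and not a bound site, and a window without one says nothing of the factor.

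**Figure D1:**
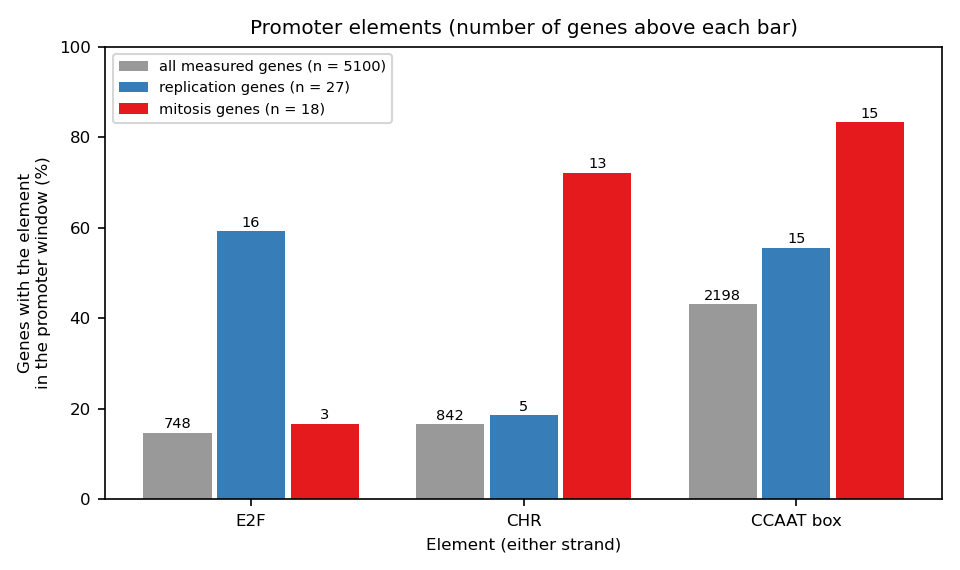
Share of promoter windows (%, y axis) that hold E2F, CHR or CCAAT letters on either strand, for all measured genes (grey, n = 5100), replication genes (blue, n = 27) and mitosis genes (red, n = 18), with the number of genes above each bar. E2F letters peak in the replication genes at 59.3% and CHR letters in the mitosis genes at 72.2%.

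Each deposited column is the authors' mean of 3 libraries, so no member has a value per library, an SD or a p-value, and no difference has a replicate check. Library depths worked out from the tables ran from 24.3 to 37.22 M (mega) reads in wild-type and from 9.42 to 33.59 M reads in Mettl3-deficient libraries. The unbound libraries alone ran from 24.3 to 27.38 M reads in wild-type and from 12.24 to 27.27 M reads in Mettl3-deficient cells. Mettl3 stood at 36.4, 33.2 and 36.1 RPKM in wild-type input, unbound and m6A-tagged RNA and at 19.6, 11.2 and 17.4 RPKM in Mettl3-deficient RNA. It was lower in each fraction, though not at 0, and the labels do not name the deleted exons. HSC markers (9 genes, Slamf1 and Procr among them) summed to 1058 RPKM in wild-type against 1318 RPKM in Mettl3-deficient input. Markers of other cells were present mainly in wild-type input: 7 myeloid genes summed to 2037 RPKM against 447 RPKM in Mettl3-deficient input, 6 erythroid genes to 331 against 73.1 RPKM, 5 megakaryocyte genes to 669 against 261 RPKM, 6 lymphoid genes to 197 against 47.2 RPKM (of which Nkg7 alone gave 188 and 46.2 RPKM), and 4 eosinophil and basophil genes to 746 against 19.1 RPKM. Of these lists 6, 4, 2, 3 and 3 genes were 2-fold lower. The 4 markers of CD48+ progenitors summed to 257 and 328 RPKM, mostly Cd34 and Cd27, while Cd48 itself stood at 15.5 RPKM in wild-type and at 5.54 RPKM in Mettl3-deficient input. Cd3e stood at 0.02 and 0.04 RPKM and Hba-a1 at 0.32 and 0.23 RPKM. Myeloid and erythroid progenitors are known to cycle, and the part of these cells in the levels given here was not tested. In bulk RNA, fewer cells of a type and less RNA per cell cannot be told apart.

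In wild-type input, 12 of the 32 replication genes and 2 of the 21 mitosis genes stood at 100 RPKM or more. In Mettl3-deficient input 10 and 0 did. RPKM is a level per gene length, so levels can be set beside each other between genes. The 53 genes summed to 3911 RPKM in wild-type input, 4315 RPKM unbound and 3552 RPKM m6A-tagged, and to 3694, 3004 and 3689 RPKM in the Mettl3-deficient fractions. The unbound fraction of Mettl3-deficient cells had the lowest sum. The replication genes had a median of 74.9 RPKM in wild-type against 67.9 RPKM in Mettl3-deficient input. The mitosis genes had medians of 32.3 and 22.3 RPKM. Replication messages thus stood above mitosis messages by median in either genotype.

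The MCM helicase subunits were among the highest. Mcm2 stood at 155 RPKM in wild-type input, 188 RPKM unbound and 124 RPKM m6A-tagged, and at 156, 51.7 and 153 RPKM in Mettl3-deficient cells. Mcm5 stood at 188, 167 and 153 RPKM in wild-type against 213, 123 and 195 RPKM in Mettl3-deficient cells. Mcm3, Mcm6 and Mcm7 lay between 195 and 294 RPKM in the 2 input columns, and Mcm4 at 85.7 and 91.1 RPKM. All 6 subunits differed by less than 2-fold between the input columns, and in all 6 the unbound column was the lowest of the 3 Mettl3-deficient ones.

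The loading factors were lower. Cdc6 stood at 18.6, 6.64 and 20.2 RPKM in wild-type input, unbound and m6A-tagged RNA and at 13.8, 7.86 and 11.4 RPKM in Mettl3-deficient RNA. Cdt1 stood at 43.6, 20.9 and 58.1 RPKM and at 45.0, 28.9 and 64.7 RPKM, in the same order. Both were lowest in the unbound column of either genotype. Cdc45 and the GINS subunits Gins1 and Gins2 lay between 27.1 and 65.5 RPKM in the input columns.

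The clamp Pcna stood at 89.0, 85.6 and 83.4 RPKM in wild-type against 89.0, 49.5 and 77.5 RPKM in Mettl3-deficient cells. Within its loader, the subunits differed widely. Rfc1, the large subunit, stood at 26.6, 9.82 and 22.9 RPKM in wild-type against 18.3, 0.523 and 15.1 RPKM in Mettl3-deficient cells. Rfc2, a small subunit, was the highest of the 53 genes in input, with 318, 224 and 434 RPKM and 405, 482 and 467 RPKM. Rfc1 was almost absent from the Mettl3-deficient unbound column, where Rfc2 reached its highest level. Rfc3, Rfc4 and Rfc5 lay between 35.1 and 125 RPKM in the input columns.

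Of the polymerases, Pold1, the catalytic subunit of polymerase delta, stood at 109, 224 and 49.7 RPKM in wild-type against 97.7, 43.0 and 125 RPKM in Mettl3-deficient cells. Pola1, of polymerase alpha, stood at 11.6, 9.74 and 7.80 RPKM and at 7.87, 0.509 and 7.52 RPKM. Pole, of polymerase epsilon, stood at 9.74, 6.42 and 7.28 RPKM and at 7.13, 4.00 and 8.99 RPKM. Pold1 was thus highest in unbound RNA of wild-type cells and lowest there in Mettl3-deficient cells, while Pola1 and Pole were low in every column. The primase Prim1 stood at 107 and 65.5 RPKM in wild-type and Mettl3-deficient input.

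Among the factors that hold and join strands, the ligase Lig1 stood at 81.8, 95.3 and 55.1 RPKM in wild-type against 70.3, 15.6 and 74.7 RPKM in Mettl3-deficient cells. The flap nuclease Fen1 stood at 51.7, 6.55 and 77.7 RPKM and at 81.2, 43.2 and 128 RPKM. These 2 enzymes act in turn on the same strand, and their unbound levels went in opposite directions between the genotypes. Rpa1 and Rpa2, of the single-strand binding protein, lay between 109 and 128 RPKM in the input columns. In unbound RNA Rpa1 stood at 88.0 RPKM in wild-type against 33.4 RPKM in Mettl3-deficient cells, and Rpa2 at 100.3 and 212 RPKM.

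Of the enzymes that supply nucleotides, Rrm1, the large subunit of ribonucleotide reductase, stood at 117, 94.0 and 108 RPKM in wild-type against 128, 28.6 and 91.0 RPKM in Mettl3-deficient cells. Rrm2, the small subunit, stood at 68.1, 81.5 and 67.9 RPKM and at 49.7, 57.9 and 61.1 RPKM. Tyms, thymidylate synthase, stood at 42.8, 84.5 and 34.2 RPKM and at 38.9, 82.7 and 40.2 RPKM. The subunits of 1 enzyme thus differed, Rrm1 being low in Mettl3-deficient unbound RNA and Rrm2 not, and Tyms was highest in the unbound column of either genotype.

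Of the regulators, E2f1 stood at 31.0, 25.8 and 40.3 RPKM in wild-type against 11.3, 15.5 and 18.6 RPKM in Mettl3-deficient cells, lower in each fraction. Mybl2, which works with MuvB on mitotic genes, stood at 16.3, 10.7 and 17.6 RPKM and at 13.0, 1.81 and 17.1 RPKM. The chromatin remodeller Hells stood at 32.3, 34.7 and 28.6 RPKM and at 23.4, 3.17 and 14.3 RPKM. Timeless, which protects the moving fork, stood at 25.2, 6.81 and 26.3 RPKM and at 31.1, 0.876 and 37.5 RPKM. Mybl2, Hells and Timeless shared a low value in Mettl3-deficient unbound RNA.

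Among the mitosis genes, Cdk1 stood at 68.8, 100.2 and 75.2 RPKM in wild-type against 61.4, 79.7 and 66.6 RPKM in Mettl3-deficient cells. Its partners Ccnb1 and Ccnb2 stood at 25.2 and 121 RPKM in wild-type input and at 19.2 and 95.6 RPKM in Mettl3-deficient input. The ubiquitin-conjugating enzyme Ube2c, which serves the APC/C, stood at 131, 241 and 87.7 RPKM and at 75.9, 161 and 79.0 RPKM. Ube2c and Ccnb2 were highest in the unbound column of either genotype. Top2a, the topoisomerase that untangles chromosomes, stood at 60.0, 32.6 and 58.5 RPKM in wild-type against 44.6, 2.63 and 26.98 RPKM in Mettl3-deficient cells. The spindle motor Kif11 stood at 32.3, 6.03 and 21.3 RPKM and at 15.98, 0.554 and 11.0 RPKM. The survivin gene Birc5 went the other way, with 27.7, 26.0 and 40.2 RPKM and 22.3, 57.6 and 20.5 RPKM. Ccna2, Aurka, Aurkb, Plk1, Bub1b and Tpx2 lay between 21.7 and 63.4 RPKM in the input columns.

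The proliferation marker Mki67 stood at 10.2, 0.097 and 13.5 RPKM in wild-type against 8.84, 0.406 and 8.56 RPKM in Mettl3-deficient cells, so it was nearly missing from both unbound columns. The kinetochore genes Cenpe and Cenpf were also under 1 RPKM in both unbound columns, with 0.517 and 0.442 RPKM for Cenpe and 0.588 and 0.186 RPKM for Cenpf. In input they stood at 8.56 and 7.47 RPKM and at 2.93 and 2.76 RPKM. Of the other genes under the minimum, the checkpoint kinase Bub1 stood at 11.2 RPKM in wild-type against 7.02 RPKM in Mettl3-deficient input, and the midzone motor Kif23 at 13.2 and 10.5 RPKM.

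The input columns ask whether loss of Mettl3 altered the level of these messages. Few differed: 3 of 46 measured members were 2-fold lower in Mettl3-deficient input, where 6.67% of all measured genes were, and 0 were 2-fold higher, where 2.38% of all were. Differences are log2((RPKM + 1)/(RPKM + 1)), a scale that understates those of low genes, and a 2-fold difference is a size and not a test. Rcc2, a regulator of chromosome condensation and the centromere (chr4:140701473-140723220), stood at 71.4 RPKM in wild-type against 9.04 RPKM in Mettl3-deficient input, 7.21-fold lower. E2f1 (chr2:154559400-154569892) was 2.60-fold lower, and Nusap1, which bundles spindle microtubules (chr2:119618298-119650165), 2.32-fold lower, with 29.9 and 12.3 RPKM. E2f1 overlaps Necab3 and Nusap1 overlaps Oip5, and counting by strand is not stated, so reads of the neighbours cannot be told apart. Rcc2 overlaps no other gene.

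The members' median difference in input was -0.16, beside -0.05 for all measured genes, with -0.02 for the 30 replication members and -0.35 for the 16 mitosis members. For the members set by role the log2 differences were 0.01 for Mcm2 and 0.18 for Mcm5, -0.40 for Cdc6 and 0.05 for Cdt1, and 0.00 for Pcna and -0.52 for Rfc1. They were -0.45 for Rrm2, -0.14 for Tyms, -0.31 for Mybl2, 0.29 for Timeless, -0.42 for Top2a, -0.16 for Cdk1 and -0.38 for Ccnb1. Plk1, a kinase of spindle assembly, differed by -0.24, Aurkb, of the chromosomal passenger complex, by 0.03, the checkpoint gene Bub1b by 0.12 and Cdc20 by -0.28. None of these reached 2-fold. Pola1 and Mki67, under the minimum, differed by -0.50 and -0.19. The lower sums of myeloid, erythroid and eosinophil markers in the same column stand beside these values, and their part in them was not tested.

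The unbound columns ask what RNA the antibody left behind. Here the members differed by genotype far more than in input: 23 of 46 were 2-fold lower in Mettl3-deficient unbound RNA (50.0%), beside 22.7% of all measured genes, and 5 were 2-fold higher, beside 19.7% of all. The median was -1.005 for the members and 0.02 for all measured genes. It was -0.90 for replication members, of which 15 of 30 were 2-fold lower, and -1.11 for mitosis members, of which 8 of 16 were. This comparison and that of m6A-tagged RNA between genotypes were added after the values had been seen.

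Top2a was 9.24-fold lower in Mettl3-deficient unbound RNA, Hells 8.58-fold and Rfc1 7.11-fold. Lig1 was 5.81-fold lower, Pold1 5.11-fold, Mcm4 4.89-fold and Rcc2 4.84-fold. Kif11, Mybl2 and Timeless were 4.53-fold, 4.17-fold and 4.16-fold lower. These 10 take in the helicase, the clamp loader, a polymerase, the ligase, a remodeller, a transcription factor, the fork protector and 3 mitosis genes. For genes near 0 the size depended on the added value: with 5 RPKM in place of 1, the log2 difference went from -2.83 to -1.42 for Rfc1, from -3.21 to -2.30 for Top2a, from -3.10 to -2.28 for Hells, from -2.06 to -1.21 for Mybl2, from -2.06 to -1.01 for Timeless and from -2.18 to -0.99 for Kif11, which ended its 2-fold difference.

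Of the 6 MCM subunits, 5 were 2-fold lower, by 4.89-fold for Mcm4, 3.58-fold for Mcm2, 2.56-fold for Mcm3, 2.18-fold for Mcm6 and 2.15-fold for Mcm7, and Mcm5 differed by -0.44. With upper-quartile scaling Mcm6 and Mcm7 were at -0.94 and -0.92, under 2-fold. The other members 2-fold lower were Rrm1, Rpa1, Rfc4, Cdc45, Nusap1, Bub1b, Ccna2, Tpx2 and Plk1, between 2.04-fold and 3.47-fold. Of these, Rfc4 and Cdc45 were at -0.94 and -0.85 with upper-quartile scaling, and Tpx2 at -0.90 with 5 RPKM added, under 2-fold. Mcm7 overlaps Ap4m1, Rfc4 overlaps Eif4a2, Lig1 overlaps Zswim9, Rpa1 overlaps Smyd4, Cdc45 overlaps Ufd1 and Ccna2 overlaps Exosc9, so their counts may hold reads of the neighbour.

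The 5 members higher in Mettl3-deficient unbound RNA were Fen1 by 5.86-fold, Birc5 by 2.17-fold, Rfc2 by 2.15-fold, Rpa2 by 2.10-fold and Gins2 by 2.08-fold. Fen1 overlaps Tmem258 and Gins2 overlaps Gse1. Within complexes the direction was split, since Rfc1 was lower and Rfc2 higher, and Rpa1 lower and Rpa2 higher. Among the members set by role, Cdc6 differed by 0.21, Cdt1 by 0.45, Pcna by -0.78, Rrm2 by -0.49, Tyms by -0.03, E2f1 by -0.70, Cdk1 by -0.33, Ccnb1 by -0.98, Aurkb by 0.59 and Cdc20 by -0.83. Pola1, under the minimum, differed by -2.83, and Mki67 by 0.36. In this fraction the summed myeloid markers stood at 3065 RPKM in wild-type against 1225 RPKM in Mettl3-deficient cells and the erythroid ones at 528 and 114 RPKM, and the HSC markers at 1272 and 1474 RPKM. The part of these cells in the unbound differences was not tested.

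**Figure D2:**
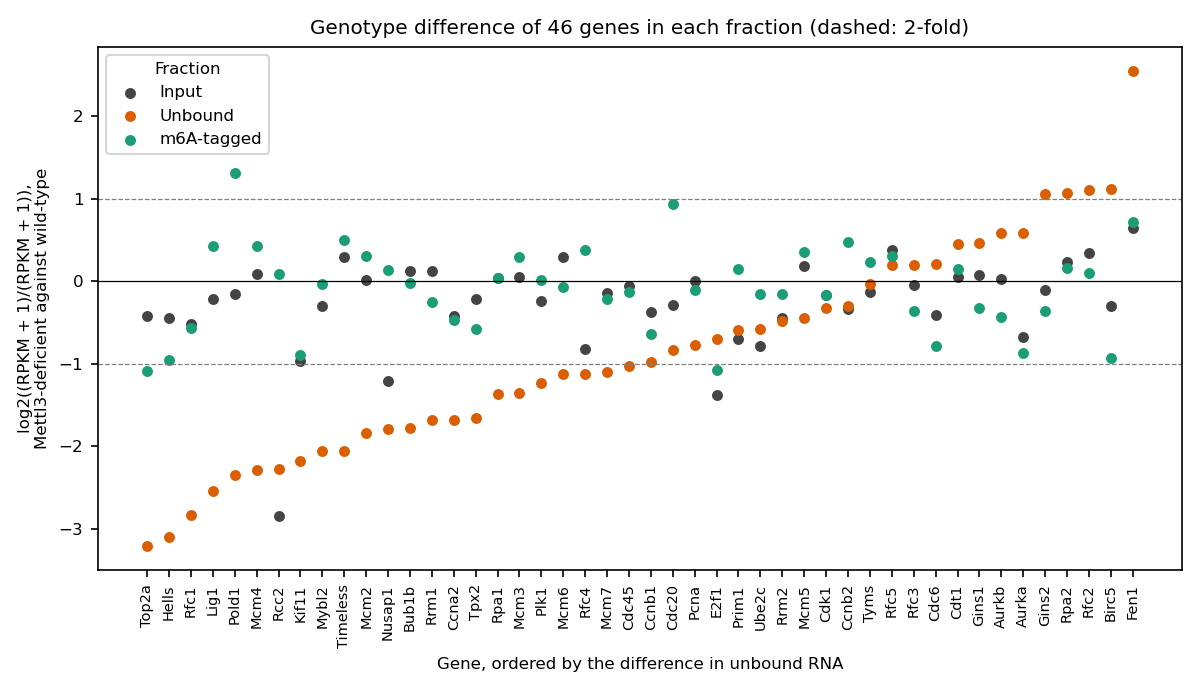
Difference between Mettl3-deficient and wild-type cells on a log2 scale (y axis) for the 46 measured members (x axis, ordered by the unbound difference), in input (grey), unbound (orange) and m6A-tagged RNA (green), with dashed lines at 2-fold. Unbound points run from -3.21 (Top2a) to 2.55 (Fen1), while only 3 of the 46 input points lie beyond the dashed lines.

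The unbound difference went with the genomic span of the gene, the length from start to end with introns, in RefSeq. The 14 members spanning under 10 kb had a median of -0.15, the 20 between 10 and 30 kb of -0.91 and the 12 of 30 kb or more of -1.93. All measured genes in the same ranges had medians of 0.46, -0.06 and -0.63. Of the 12 longest members 11 were 2-fold lower (91.7%), beside 39.6% of all genes of that span, and Tyms was the exception at -0.03. The members' median thus lay below that of all genes in each range. Across the 46 members Spearman's rho between span and unbound difference was -0.57, and across 6287 measured genes with a span it was -0.35. In input these were -0.06 and -0.03. These correlations are across genes that share the same libraries, and they describe those columns. Span is not the length of the message, which was not analysed here.

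**Figure D3:**
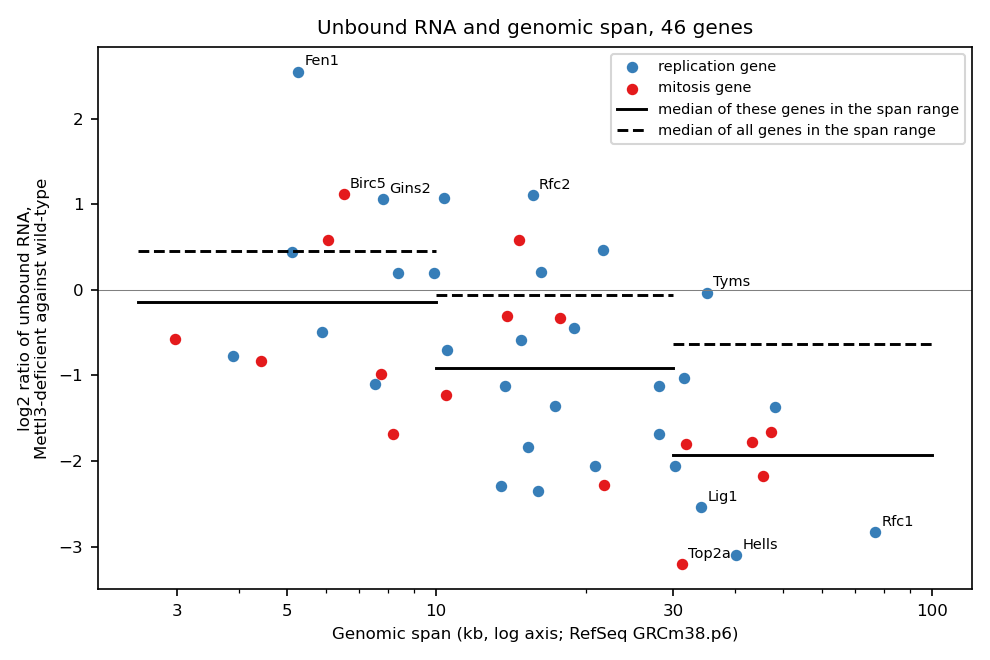
Log2 ratio of Mettl3-deficient to wild-type unbound RNA (y axis) against genomic span in kb (x axis, log scale) for 30 replication (blue) and 16 mitosis members (red), with solid lines at the members' median and dashed lines at that of all measured genes in each span range. The members' medians step from -0.15 to -0.91 and -1.93, below the dashed lines throughout.

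Grouped by promoter letters, the members differed as follows. The 14 measured members with E2F and no CHR letters had a median unbound difference of -1.12, the 11 with CHR and no E2F letters of -1.03, the 3 with both of -0.33 and the 11 with neither of -0.78. Of these, 8, 6, 1 and 5 were 2-fold lower, beside 22.7% of all measured genes. In input the medians were -0.19, -0.28, -0.15 and -0.30. All 3 members that were 2-fold lower in input, Rcc2, E2f1 and Nusap1, were among those with neither.

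In m6A-tagged RNA the genotypes differed little for these genes. Of 46 measured members, 1 was 2-fold higher in Mettl3-deficient m6A-tagged RNA, beside 6.02% of all measured genes, and 2 were 2-fold lower, beside 7.15%. Pold1 was 2.48-fold higher, with 49.7 RPKM in wild-type against 125 RPKM in Mettl3-deficient cells. Top2a was 2.13-fold lower and E2f1 2.11-fold lower, and neither stayed at 2-fold with upper-quartile scaling (-0.97 and -0.95). The members' median was -0.05, beside -0.01 for all measured genes. With upper-quartile scaling these were 0.06 and 0.11, and the distance between them was -0.04 either way.

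Among the members set by role the log2 differences in m6A-tagged RNA were 0.30 for Mcm2, 0.35 for Mcm5, -0.78 for Cdc6, 0.15 for Cdt1, -0.10 for Pcna, -0.56 for Rfc1 and -0.05 for Pola1. They were -0.15 for Rrm2, 0.23 for Tyms, -0.04 for Mybl2, 0.50 for Timeless, -0.60 for Mki67, -0.17 for Cdk1 and -0.64 for Ccnb1. Plk1 differed by 0.01, Aurkb by -0.43, Bub1b by -0.02, Cdc20 by 0.94 and Rcc2 by 0.09. Rcc2, 7.21-fold lower in input, therefore stood at nearly the same m6A-tagged level in the 2 genotypes, with 20.6 RPKM in wild-type against 22.0 RPKM in Mettl3-deficient cells.

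The ratio of m6A-tagged to input RNA asks which messages the antibody enriched. None of the 46 measured members was 2-fold higher in wild-type m6A-tagged RNA than in input, where 3.69% of all measured genes were. Another 5 were 2-fold lower, beside 5.23% of all. These were Rcc2 by 3.36-fold, Rfc4, a small clamp loader subunit, by 2.34-fold, Nusap1 by 2.23-fold, Pold1 by 2.17-fold and Cdc20 by 2.11-fold. Cdc20 overlaps Elovl1, so its counts may hold reads of that neighbour. Rfc4 stood at 125 RPKM in input, 278 RPKM unbound and 52.6 RPKM m6A-tagged, and Cdc20 at 92.2, 169 and 43.2 RPKM. Nusap1 was at -0.97 with 5 RPKM added. The members' median was -0.10, beside 0.06 for all measured genes, and Fen1 was highest at 0.58.

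In Mettl3-deficient cells only Rcc2 was 2-fold above its input level in m6A-tagged RNA, by 2.29-fold, where 1.37% of all measured genes were, and with 5 RPKM added its log2 ratio was 0.94. No measured member was 2-fold lower, where 1.45% of all were. The members' median was 0.02, beside 0.12 for all. With upper-quartile scaling these were -0.11 and -0.01, so the members' median kept its distance of -0.10 from that of all genes. Rfc4 stood at 70.3, 127 and 68.9 RPKM and Cdc20 at 75.5, 94.5 and 83.4 RPKM, so neither was depleted from the m6A-tagged column here.

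The wild-type log2 ratios of m6A-tagged to input were -0.32 for Mcm2, -0.30 for Mcm5, 0.11 for Cdc6, 0.41 for Cdt1, -0.09 for Pcna and -0.21 for Rfc1. The Mettl3-deficient ones were -0.02, -0.13, -0.26, 0.51, -0.20 and -0.26 in the same order. For Rrm2, Tyms, E2f1, Mybl2 and Timeless the wild-type ratios were 0.00, -0.32, 0.37, 0.10 and 0.06, and the Mettl3-deficient ones 0.29, 0.05, 0.67, 0.37 and 0.26. All of these stayed within 2-fold. For Top2a, Cdk1, Ccnb1, Plk1, Aurkb and Bub1b the wild-type ratios were -0.04, 0.13, -0.24, -0.04, 0.56 and -0.12, and the Mettl3-deficient ones -0.71, 0.12, -0.50, 0.22, 0.10 and -0.27. Pola1 and Mki67 had ratios of -0.51 and 0.37 in wild-type and of -0.06 and -0.04 in Mettl3-deficient cells.

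The difference between these ratios, Mettl3-deficient minus wild-type, was 2-fold or more in 5 of 46 measured members, each higher in Mettl3-deficient cells, beside 7.31% of all measured genes. None was 2-fold lower, beside 2.91% of all. The values were 2.94 for Rcc2, 1.47 for Pold1, 1.35 for Nusap1, 1.22 for Cdc20 and 1.20 for Rfc4, and these are the 5 genes depleted from wild-type m6A-tagged RNA, whose ratio this difference holds. The median was -0.01 for the members and 0.04 for all. Of these 5 genes, only Rcc2 was past 2-fold in both genotypes, in opposite directions (-1.75 in wild-type against 1.20 in Mettl3-deficient cells). Pold1 (-1.12 and 0.35), Nusap1 (-1.16 and 0.19) and Cdc20 (-1.08 and 0.14) also had ratios of opposite signs, while Rfc4 (-1.23 and -0.03) did not. Every other member named by role lay between -0.67 (Top2a) and 0.46 (Pola1, under the minimum). The 3 comparisons share the same input and m6A-tagged columns and are not separate evidence.

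**Figure D4:**
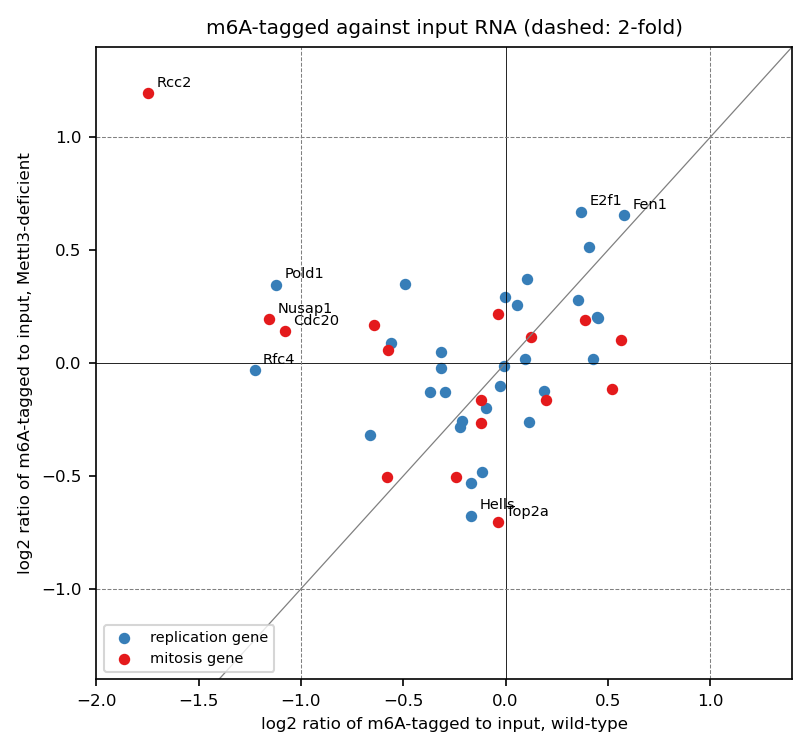
Log2 ratio of m6A-tagged to input RNA in Mettl3-deficient cells (y axis) against that in wild-type cells (x axis) for the 46 measured members, replication genes in blue and mitosis genes in red, with dashed lines at 2-fold and a line of equality. Rcc2 stands alone at the upper left (-1.75 and 1.20), and Pold1, Nusap1, Cdc20 and Rfc4 lie left of the wild-type 2-fold line.

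Against unbound RNA more members passed 2-fold than against input. In wild-type cells 8 of 46 measured members were 2-fold higher in m6A-tagged RNA than in unbound, beside 31.5% of all measured genes, and 8 were 2-fold lower, beside 19.3%. With upper-quartile scaling, which lowered the ratio of all genes by 0.59, the members' split was 4 higher against 17 lower, beside 22.7% and 36.0% of all measured genes. Fen1 was 10.4-fold higher, the spindle assembly factor Tpx2 3.55-fold, Timeless 3.49-fold and Kif11 3.17-fold. Cdc6, Cdt1, the Aurora kinase Aurka and Rfc1 were 2.78-fold, 2.69-fold, 2.34-fold and 2.20-fold higher, and with upper-quartile scaling their log2 ratios were between 0.57 and 0.92, under 2-fold. Aurka overlaps Cstf1, so its counts may hold reads of that neighbour. Lower were Rfc4 by 5.20-fold, Pold1 by 4.43-fold, Cdc20 by 3.84-fold, Rcc2 by 3.32-fold, Nusap1 by 2.89-fold, Ube2c by 2.73-fold, Ccnb2 by 2.68-fold and Tyms by 2.43-fold. The median was -0.08 for the members, beside 0.12 for all measured genes. Without a minimum it was 0.08 over the 53 genes, beside -0.004 for all 23038, so the order of the 2 medians depended on the minimum.

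In Mettl3-deficient cells 19 of 46 measured members were 2-fold higher in m6A-tagged RNA than in unbound, beside 33.7% of all measured genes, and 4 were 2-fold lower, beside 16.9%. With upper-quartile scaling, which lowered the ratio of all genes by 0.65, the members' split was 10 higher against 9 lower, beside 20.6% and 31.5% of all measured genes. Timeless was 20.5-fold higher, Rfc1 10.6-fold, Top2a 7.71-fold, Kif11 7.70-fold and Tpx2 7.51-fold. Mybl2 was 6.44-fold higher, Lig1 4.57-fold, Mcm4 4.50-fold, Hells 3.67-fold and Rpa1 3.33-fold. With 5 RPKM added the log2 ratios of Timeless, Rfc1, Top2a, Kif11, Tpx2, Mybl2 and Hells were 2.85, 1.87, 2.07, 1.52, 1.86, 1.70 and 1.24, still past 2-fold. Lower were Birc5 by 2.72-fold, Gins2 by 2.35-fold, and Tyms and Ube2c by 2.03-fold each, the last 2 at -0.95 and -0.99 with 5 RPKM added. The median was 0.52 for the members beside 0.33 for all. With upper-quartile scaling these were -0.11 and -0.32, so the members' median stayed above that of all genes, by 0.19 and 0.21.

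The members named by role that were 2-fold in neither genotype were Mcm5 with ratios of -0.13 in wild-type against 0.66 in Mettl3-deficient cells, Pcna with -0.04 and 0.64, Rrm2 with -0.26 and 0.08, E2f1 with 0.62 and 0.25, Cdk1 with -0.41 and -0.26, Ccnb1 with -0.55 and -0.20, and Aurkb with 0.49 and -0.53. Mcm2 had -0.59 and 1.55, Plk1 -0.18 and 1.06, and Bub1b -0.39 and 1.37, passing 2-fold only in Mettl3-deficient cells, where upper-quartile scaling left 0.89, 0.41 and 0.74. Pola1, under the minimum, had -0.29 and 2.498. Mki67, nearly missing from both unbound columns, had 3.72 and 2.77.

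The difference of these ratios between genotypes was 2-fold higher in Mettl3-deficient cells for 22 of 46 measured members (47.8%), beside 23.7% of all measured genes, and 2-fold lower for 5, beside 22.8%. With median-ratio scaling the split was 20 against 8, beside 20.7% and 26.7% of all measured genes. The median was 0.90 for the members and -0.01 for all. The highest were Pold1 at 3.66, Lig1 at 2.97, Mcm4 at 2.72, Timeless at 2.55, Rcc2 at 2.37, Rfc1 at 2.27, Hells at 2.15, Mcm2 at 2.14, Top2a at 2.12 and Mybl2 at 2.02. With 5 RPKM added, Rfc1 was at 0.96, Timeless at 1.45, Top2a at 1.31, Mybl2 at 1.18 and Hells at 1.48. The lowest were Birc5 at -2.05, Fen1 at -1.83, Aurka at -1.46, Gins2 at -1.41 and Aurkb at -1.02, the last at -0.96 with 5 RPKM added. This difference and the comparison of unbound RNA between genotypes share both unbound columns.

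Pold1 had opposite ratios in the genotypes, -2.15 in wild-type against 1.51 in Mettl3-deficient cells, and Rcc2 had -1.73 and 0.64. Pold1 (chr7:44532744-44548815) overlaps no other protein-coding gene. By span, the members' median of this difference was 0.22 under 10 kb, 0.93 from 10 to 30 kb and 1.85 from 30 kb, beside -0.53, 0.11 and 0.62 for all measured genes. Spearman's rho with span was 0.51 across the 46 members and 0.34 across 6287 genes.

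Genes of the same pathways outside the 53 were read from 3 further lists. Of 46 other replication genes 33 were measured. In input 1 was 2-fold lower (Rpa3, the small subunit of the single-strand binding protein, at -1.44) and 0 higher, and in unbound RNA 8 were 2-fold lower and 1 higher, with a median of -0.37. Lowest in unbound RNA were the histone chaperone Nasp at -2.83, the maintenance methyltransferase Dnmt1 at -2.79 and the topoisomerase Top1 at -2.59, and highest were the thymidine kinase Tk1 at 2.30, Dctpp1 at 0.66 and Orc2 at 0.52. Of 87 other mitosis genes 56 were measured. In input 0 were 2-fold lower or higher, and in unbound RNA 21 were lower and 2 higher, with a median of -0.53. Over all measured genes 6.67% were 2-fold lower and 2.38% higher in input, and 19.7% were higher in unbound RNA. Lowest there were the condensin subunit Ncaph at -3.43, the cohesin subunit Smc1a at -3.36 and the kinetochore gene Ndc80 at -3.31, and highest were the APC/C subunit Cdc26 at 2.53, Cenpm at 1.18 and Pkmyt1 at 0.86. The shares 2-fold lower in unbound RNA were thus 24.2% and 37.5%, against 50.0% of the members and 22.7% of all measured genes.

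Of 19 transcription regulators of S phase and mitosis, 7 were measured, and all 7 were below 0 in input, with a median of -0.76. Of all 6295 measured genes, 2882 were above 0 there. E2f6 was at -1.45, E2f4, a repressive partner in DREAM, at -1.26 and Myb at -0.86, and Tfdp1 was nearest 0 at -0.28. In unbound RNA 5 of the 7 were 2-fold lower, beside 22.7% of all measured genes, lowest Myb at -2.22, E2f6 at -2.21 and Rbl2 at -1.81. Lin37 alone was above 0 at 0.31, with Tfdp1 at -0.47 and E2f5 at -1.24. E2f4 stood at 105 RPKM in wild-type against 43.1 RPKM in Mettl3-deficient input, and Myb at 108 and 59.3 RPKM. Of the 7, 2 were 2-fold lower in Mettl3-deficient input (E2f6 and E2f4), where 6.67% of all measured genes were. With E2f1, 3 E2F genes were thus 2-fold lower in that column, and E2f5, the only other measured E2F gene, was at -0.76. The replication members had a median of -0.02 in this comparison. With upper-quartile scaling all genes moved up by 0.14 in this comparison.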

How the data were processed

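Per the labels' protocols, Smart-seq2 libraries were made from each of the 3 RNA fractions. For each genotype the authors deposited a table with an RPKM column per fraction. By its values, a column averages 3 libraries after 1 read was added per gene and library. The build mm10 and the tools Picard and edgeR are named, with no role or version, per the submitters' processing notes. The counting tool, like the aligner, is not given in the sources used here. Tables were joined on gene ID. Python 3.11.15, pandas 2.3.3 and numpy 2.4.6 gave log2((RPKM + 1)/(RPKM + 1)) for 9 comparisons over genes averaging 10 RPKM or more, and a 2-fold difference counted. The design had foreseen tests on values per library, which pooled columns do not allow. The calculation was tested on simulated data.

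Members and lists were chosen with earlier results of these data known. Named in each comparison are members past 2-fold (at most the 10 largest in a direction) and 21 members set by role. The exception is unbound RNA between genotypes, where all 23 members that were 2-fold lower are named. Outside the 53 genes, the 3 highest and 3 lowest of a list in unbound RNA are named, and those 2-fold lower in input. Alternatives were 0.1 or 5 RPKM added, no minimum or 20 RPKM, and median-ratio or upper-quartile scaling. Spans and promoter windows came from RefSeq, GRCm38.p6.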

Additional observations from a re-analysis of the deposited data

Results flagged for a closer look

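Rcc2 was drawn out because its ratio of m6A-tagged to input RNA was past 2-fold in both genotypes, in opposite directions. The ratio was -1.75 in wild-type against 1.20 in Mettl3-deficient cells, a difference of 2.94. Pold1 was drawn out in the same way against unbound RNA, with -2.15 and 1.51, a difference of 3.66. Each is a difference between pooled columns, and neither difference was tested.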

How the results depend on the processing

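No paired analysis was possible because each group is 1 pooled column, and for the same reason no library could be left out. The 111 values of named members were recomputed 644 times under the 6 alternatives: 600 stayed past 2-fold, 44 were under it and 0 reversed. Of the 44, 20 came with upper-quartile scaling, 15 with 5 RPKM added and 9 with median-ratio scaling. For m6A-tagged against unbound RNA, the all-gene median shifted by -0.59 (wild-type) and -0.65 (Mettl3-deficient) with upper-quartile scaling. That scaling gave 4 members higher and 17 lower in wild-type (8 and 8 as reported), beside 22.7% and 36.0% of all measured genes. In Mettl3-deficient cells it gave 10 higher and 9 lower (19 and 4), beside 20.6% and 31.5% of all. Between genotypes in m6A-tagged RNA it gave 2 higher and 0 lower (1 and 2 as reported), beside 8.12% and 5.58% of all, and with 5 RPKM added 0 were lower. Adding 5 RPKM also left 0 members higher in m6A-tagged than input RNA of Mettl3-deficient cells (1 as reported) and 2 lower than unbound RNA (4). A minimum of 20 RPKM left 4 of 40 members higher in wild-type m6A-tagged than unbound RNA (8). Median-ratio scaling gave 8 members lower in the genotype difference against unbound RNA (5), beside 26.7% of all. The causes were not tested. Counts in input and unbound RNA between genotypes stayed within 1.5 times of those reported under each alternative run. Genes under about 1 RPKM in the unbound column rest on few reads, and their folds move with the added value.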
